A study of Mus musculus with 3 samples.

Results

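Sense-intronic genes are noncoding gene models annotated within an intron of another gene and on its strand. The members described here are the genes whose annotated transcripts all carry the type sense_intronic and whose mean expected count over the 3 libraries was at least 10. They number 139 of 327 sense-intronic genes, within 55536 annotated genes. The members were thus selected on their expected counts in these libraries, and their levels are given as a description without a test. Of the 188 sense-intronic genes below the minimum, 102 had a count of 0 in all 3 libraries.

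The RNA came from the chromatin fraction of bone-marrow-derived macrophages of C57BL/6J mice, which are primary phagocytes grown from marrow. The cells had received 100 ng/ml lipid A, the endotoxin component that activates TLR4, for 30 min. Ribosomal RNA was depleted and total RNA was sequenced from 1 group of 3 libraries, numbered as biological replicates 1, 2 and 3. Starting RNA was 1 µg in library 1, 250 ng in library 2 and 500 ng in library 3, and all 3 libraries carry the same donor record. Unstimulated cells were not analysed here, and induction is therefore not described. The labels record neither sex nor age, and no genetic change.

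The chromatin fraction is rich in nascent transcripts that have not been fully spliced, so intron sequence of active genes is present in it. A read from a sense-intronic model on the strand of its host can come from a separate noncoding RNA or from the unspliced host transcript, and these cannot be told apart in counts per gene. Most such models have no described function, with exceptions such as Peg13, an imprinted noncoding RNA expressed from the paternal chromosome within Trappc9.

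Annotated genes held 16301150, 17033725 and 16205704 expected counts in libraries 1, 2 and 3. A gene listed at 0 could still have up to 3 counts, or 0.176 to 0.185 CPM (counts scaled to the library total). All 29 macrophage lineage genes were detected at the same minimum of 10. Detected markers of other cells were 2 of 12 for T and NK cells (Cd247, Cd5), 1 of 8 for B cells (Cr2), 1 of 10 for neutrophils (Mmp8), 5 of 10 for endothelium and stroma and 2 of 8 for erythroid cells. The endothelial and stromal list held 0.0201 to 0.0261% of counts per library, against 0.881 to 1.00% for the macrophage list, and the part of other cells in the results was not tested. No member lay within a gene of any response or lineage list, including 30 NF-kB primary response genes, 31 immediate-early genes, 30 interferon-stimulated genes and 29 TLR4 pathway genes. The members lay in only 110 host genes, beside 10976 detected protein-coding genes, so lists of this size could hold few hosts. The absence was not tested and is not a trait of the members.

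Some members share sequence with other genes, so their counts do not belong to them alone. Gm12238 (ENSMUSG00000087342.1, chr11:55482706-55482829, plus strand, mm10) is a 124-base model in the first intron of G3bp1, which encodes a stress granule protein. It is identical to bases 13 to 136 of the 140-base small nucleolar RNA gene Gm22884 (chr11:55482694-55482833, plus strand), whose GENCODE M21 transcript is printed with the Gm12238 model in capitals.
Gm22884: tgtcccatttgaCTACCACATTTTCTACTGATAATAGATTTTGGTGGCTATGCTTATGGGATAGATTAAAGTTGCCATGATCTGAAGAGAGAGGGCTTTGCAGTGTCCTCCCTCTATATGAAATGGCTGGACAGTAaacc
Gm12238 was given 40.8, 12 and 3.42 expected counts in libraries 1, 2 and 3. Its TPM, the abundance per effective length scaled to a fixed library total, was 1096, 462 and 0, so library 3 had counts and is listed at 0 TPM. Gm22884 had 5.16, 0 and 2.58 counts, and reads from the identical stretch cannot be told apart.

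A second case is AC113485.1 (ENSMUSG00000118064.1, chr19:32204182-32209273, minus strand), the member with the second most reads, in an intron of Sgms1, which encodes sphingomyelin synthase 1. Its 2705-base transcript was 98.6% identical over its length to that of Gm47357 (chr12:34623907-34628638, minus strand) and 98.5% identical to that of Gm47739 (chr10:53570625-53575756, minus strand), both of them also members. Bases 2132 to 2191 of each transcript are printed from GENCODE M21, with capitals at the 6 of 60 positions at which the 3 models are not all alike. The window was chosen as the 60 bases with the most such positions, which number 61 over the whole transcript.
AC113485.1 window: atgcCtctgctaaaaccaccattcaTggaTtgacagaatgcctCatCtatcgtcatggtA
Gm47357 window: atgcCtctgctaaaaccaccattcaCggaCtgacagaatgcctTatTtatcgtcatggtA
Gm47739 window: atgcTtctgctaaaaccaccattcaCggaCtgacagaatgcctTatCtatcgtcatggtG
Each of the 3 had full-length copies in 15 other annotated genes. AC113485.1 had 1893, 1217 and 1292 expected counts in libraries 1, 2 and 3. Gm47357 had 255, 142 and 241 expected counts. Gm47739 had 52.6, 25.9 and 41.6. The order of the 3 was the same in each library, while the second quantification deposited by the authors gave mean estimated counts of 4592 for AC113485.1, 687 for Gm47357 and 2392 for Gm47739, so the division among these copies is uncertain. Unless the second quantification is named, values are those of the first, which chose the members.

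Across the members, 27 shared a stretch of at least 100 bases at 95% identity or more, in the same orientation, with another annotated gene. Matches in the opposite orientation were not sought. Shared sequence is a limit to bear in mind for Gm47587, Gm47031 and Gm48161, whose longest matches were 742, 2100 and 1445 bases. Exons of 3 members overlapped exons of another gene on the same strand: Gm12238 with Gm22884, Gm29170 with the small nucleolar RNA gene Gm25663, and Gm45311 with Sergef. Exons of 12 members overlapped exons on the opposite strand. Since the strand setting of the counting is not given in the sources used here, the counts of those 12, among them Gm47920, Gm47644 and Gm48127, are uncertain.

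The gene models were short relative to the introns around them. The transcript length had a median of 1887 bases (range 124 to 6071), against 674 bases for the 188 sense-intronic genes below the minimum. At a given level a longer model draws more counts, so a minimum on counts itself favours longer models. Of the 139 members, 133 had 1 annotated transcript, of which 88 had a single exon, 44 had 2 exons and 1 had 3. Host introns had a median length of 30.2 kb, and members began a median of 37.5 kb from the start of the host gene, with a range of 0.128 to 908 kb. The host transcript used was the one with the highest mean TPM among those with the member inside 1 intron. In that transcript 52 members lay in the first intron and 20 in the last. It can be shorter than the gene and differ between members of the same host. In Man1a2, Gm43462 was in intron 5 of 5 and Gm43466 in intron 10 of 12.

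All 139 members lay in an intron of at least 1 transcript of a gene on the same strand. Gm45311 departs from the type in that 62.1% of its bases also lie in exons of other transcripts of its host Sergef. They fell in 110 host genes, and the host was protein-coding for 137. A single member lay in 97 of the hosts, while Cdk14 and Magi3 held 7 each, Rap1a and Man1a2 4 each, and Snx27 and Lrig2 3 each. Chromosome 3 carried 40 of the 139 members and 66 of all 327 sense-intronic genes, chromosome 5 carried 20 and 39, and chromosome 1 carried 16 and 31.

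Among sense-intronic genes 42.5% reached a mean expected count of 10, against 22.7% of 2959 antisense genes, 6.99% of 5854 long intergenic noncoding genes and 25.9% of all annotated genes. The members held little of the sequence all the same. Their share of expected counts was 0.138, 0.106 and 0.157% in libraries 1, 2 and 3, with a mean of 0.134% ± 0.0258 (SD, n = 3), against 1.10% ± 0.0799 for the 110 host genes. Library 2 was the lowest of the 3. The spread describes these libraries, since the labels do not say that they came from separate mice.

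Reads were concentrated in few members. Gm17024 alone held 21.5% ± 1.27 of the members' counts and the 5 members with the most reads held 40.1% ± 2.86 (SD, n = 3). A mean count of at least 1000 was reached by 3 members, 46 lay between 100 and 1000, and 90 lay under 100. On the TPM scale the median member had 2.36, with 13 members at 10 or more and 30 under 1. The members just inside the minimum were Gm28323 and Gm15472 at a mean count of 10 and Gm24362 at 10.7, and the genes just outside it were Gm46409 at 9.67, Gm16310 at 9.33 and Gm29322 at 9.00.

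**Figure D1:**
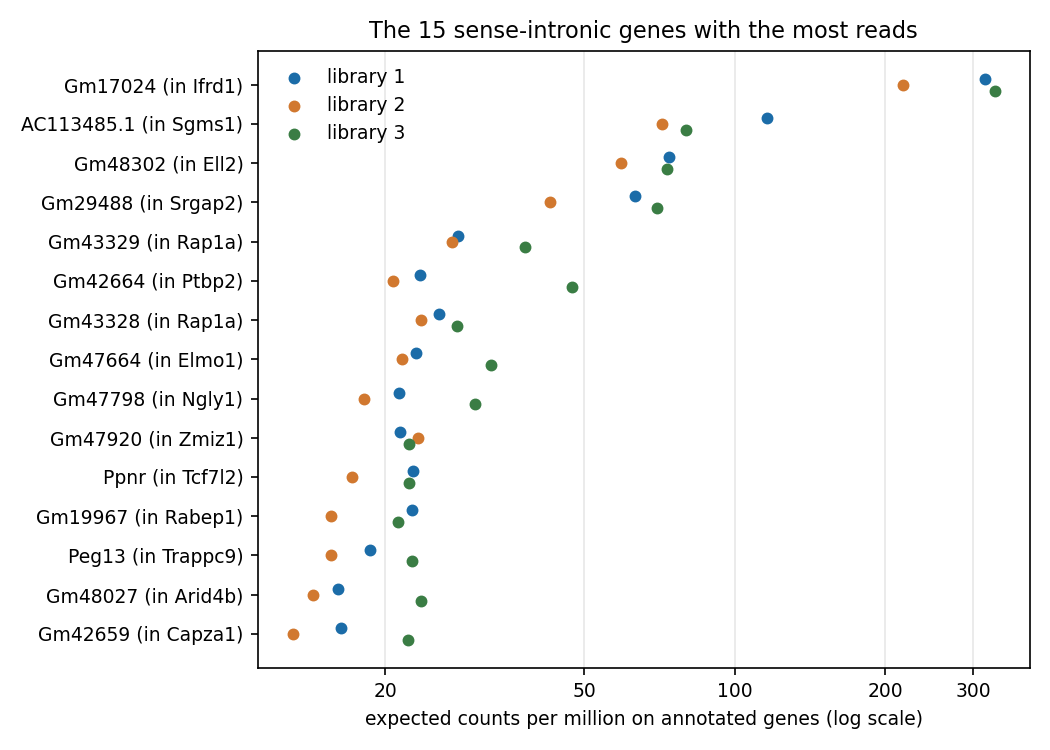
CPM on annotated genes (log axis) for the 15 members with the most reads, with the host gene in brackets and 1 point for each of the 3 libraries. Gm17024 stands apart at 217 to 331 CPM, and library 2 is the lowest point for 14 of the 15.

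Gm17024 (ENSMUSG00000090582.1, chr12:40209487-40211073, minus strand) is a 634-base model of 2 exons in intron 8 of 11 of Ifrd1, a transcriptional coregulator gene. It had 5160, 3700 and 5361 expected counts in libraries 1, 2 and 3, or 317, 217 and 331 CPM. Library 2 was the lowest and libraries 1 and 3 were close, as the plot of the 15 most abundant members shows. TPM was higher in library 3 for most genes, by a median of 0.52 in log2 above the gene's mean over detected genes, so libraries are compared in CPM and each member with its host in TPM. Gm17024 reached 443, 379 and 829 TPM, against 1055, 1155 and 2139 for Ifrd1, so Gm17024 stood below its host in every library at 38.0% of the host's mean. Of the expected counts of Ifrd1, 67.0% lay on transcripts annotated as retained intron. The bases around the join of the 2 exons of Gm17024 are printed from its GENCODE M21 transcript, positions 408 to 487, with the second exon in capitals, since a spliced model in the intron would differ from the unspliced host at this join.
Gm17024 junction: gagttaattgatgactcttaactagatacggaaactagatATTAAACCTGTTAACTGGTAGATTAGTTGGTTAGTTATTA
Reads across the join were not counted separately in the tables used here.

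Gm48302 (ENSMUSG00000113041.1, chr13:75727279-75729162, plus strand) is a single exon of 1884 bases in intron 2 of Ell2, which encodes an elongation factor for RNA polymerase II. It had 1202, 1008 and 1189 expected counts in libraries 1, 2 and 3. In TPM the member had 26.7, 24.98 and 44.7, against 20.2, 19.2 and 24.4 for Ell2, so it exceeded its host in each library, which did not hold in the second quantification. AC113485.1 had 28.3, 20.1 and 32.4 TPM, against 48.7, 29.4 and 51.0 for Sgms1. Gm29488 (chr1:131406812-131409213, minus strand) lies in intron 4 of Srgap2, a gene for a GTPase-activating protein that shapes cell protrusions. It had 17.5, 13.7 and 32.4 TPM, against 105, 119 and 148 for Srgap2, and lay at 17.1% of the host's mean.

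Further members among the 15 with the most reads had 223 to 766 counts per library. Gm42664, in the splicing regulator gene Ptbp2, had 382, 354 and 766 expected counts in libraries 1, 2 and 3, with library 3 well above the other 2. Gm47664, in the engulfment gene Elmo1, had 375, 368 and 527. Gm47798, in Ngly1, which encodes an enzyme that removes sugar chains from misfolded proteins, had 348, 309 and 490. These 3 were highest in library 3 and lowest in library 2.

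Gm47920, which begins 0.795 kb from the start of the coactivator gene Zmiz1, was the exception among the 15, with 349, 396 and 362 expected counts in libraries 1, 2 and 3 and its lowest CPM in library 1. Ppnr, in the Wnt pathway transcription factor gene Tcf7l2, had 370, 292 and 361. Gm19967, in Rabep1, which encodes an endosomal Rab5 effector, had 369, 265 and 344. Both Ppnr and Gm19967 were highest in library 1. Gm19967 (ENSMUSG00000093858.1, chr11:70864660-70872754, plus strand) has 2 exons of 305 and 1833 bases that are 5957 bases apart, and positions 266 to 345 of its GENCODE M21 transcript are printed with the second exon in capitals as another example of a spliced model.
Gm19967 junction: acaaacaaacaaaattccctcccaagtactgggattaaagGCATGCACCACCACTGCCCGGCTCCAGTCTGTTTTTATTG

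Peg13 (ENSMUSG00000106847.1, chr15:72805600-72810324, minus strand), the imprinted gene, had 304, 266 and 366 expected counts in libraries 1, 2 and 3. Its TPM was 2.52, 2.42 and 5.05, against 17.2, 21.1 and 21.8 for its host Trappc9, which encodes a subunit of a vesicle tethering complex. Gm48027, in Arid4b, a chromatin regulator gene, had 263, 244 and 383 counts, and Gm42659, in the actin capping gene Capza1, had 266, 223 and 360. Of the 15, 10 were highest in library 3 and 14 were lowest in library 2 on the CPM scale, and the fold between the highest and lowest library ranged from 1.09 to 2.27.

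Most members were less abundant than the gene that holds them. The member minus host difference in log2(TPM + 0.1) had a median over members of -2.02, -2.19 and -1.94 in libraries 1, 2 and 3, with a mean of -2.05 ± 0.13 (SD, n = 3). On the linear scale the median member had 21.9% of the host's mean TPM, with an interquartile range of 11.9 to 43.6% over 136 members whose host was above 0. The member was below its host in every library for 124 of 139, and above it in every library for 11. In the second quantification 121 were below, of which 114 were below in both. Members differed far more among themselves than libraries did: over the 135 pairs with a detected host the SD of the difference between members was 1.52, whereas the median SD over libraries was 0.29.

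**Figure D2:**
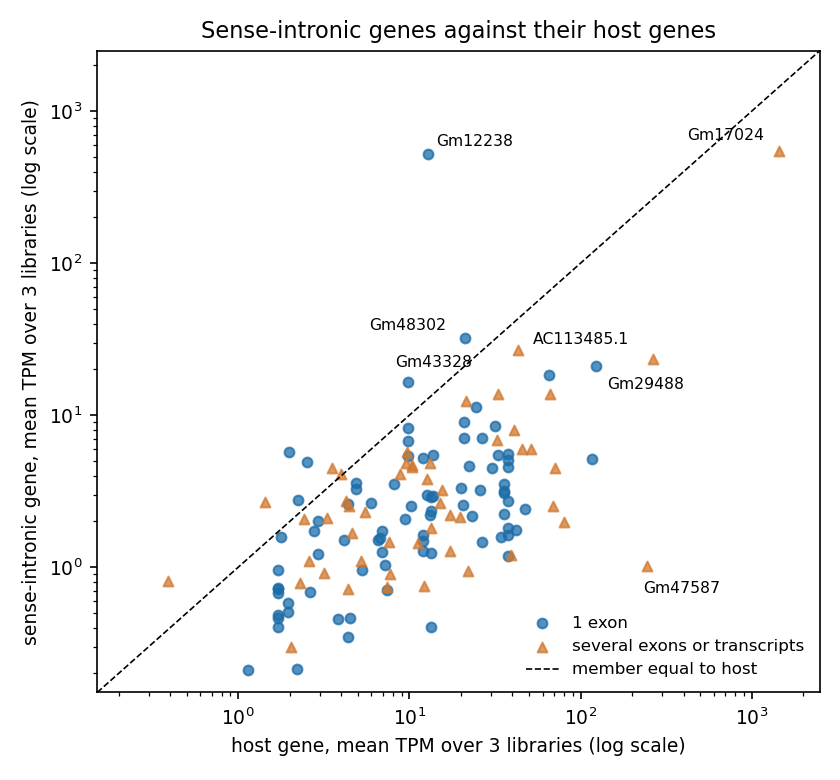
Mean TPM over 3 libraries of each sense-intronic gene (vertical, log axis) against that of its host gene (horizontal, log axis) for the 135 pairs with a detected host, with circles for single-exon models and triangles for others. Most points lie below the dashed line of equal level, while Gm12238, Gm48302 and Gm43328 lie above it in this first quantification.

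Members in more abundant hosts tended to be more abundant. Across these 135 pairs, Pearson's r between the mean log2 levels was 0.58 and Spearman's rho 0.55. With 1 member per host, over 106 pairs, they were 0.57 and 0.53. Over all 234 sense-intronic genes in detected hosts, without the minimum count, they were 0.44 and 0.41. The points are genes measured in the same 3 libraries and some share a host, so the coefficients describe this scatter, which the plot of member against host level shows.

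Above their detected host in every library were 7 members. Besides Gm48302, Gm43328 in Rap1a had 12.7, 13.7 and 23.3 TPM in libraries 1, 2 and 3, against 7.46, 7.73 and 14.3 for Rap1a. Gm28229 had 3.11, 2.98 and 11.0 TPM, against 1.76, 2.63 and 1.52 for its host Gm20537, and its ratio was largest in library 3. Gm44265, in Eefsec, which encodes the elongation factor for selenocysteine, had 4.18, 3.70 and 6.90 TPM, against 2.57, 1.78 and 3.17 for the host, on 21 to 30 counts. AC157784.1 had 0.77, 0.60 and 1.08 TPM, against 0.30, 0.37 and 0.49 for Ccbe1, a gene of lymphatic vessel growth. The last 2 of the 7 were AC154492.2 in Rhoq and C230066G23Rik in Lrrc8c, with differences of 0.29 ± 0.21 and 0.86 ± 0.58 in log2 TPM (SD, n = 3). In the second quantification, 7 members also exceeded a detected host in every library, but 1 gene was common to both sets, Gm44265 with 7.74, 6.37 and 11.5 TPM, against 3.84, 2.41 and 4.45 for Eefsec. There Gm48302 had 31.0, 21.1 and 39.9 TPM, against 41.2, 29.1 and 41.1 for Ell2, and Gm43328 also lay below its host.

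For 4 members the host by the rule used was itself under the minimum. Gm48194 had 143, 134 and 92 counts, while its host by the rule, Gm49354, was at 0 in every library. Tut7, which encodes a uridylyltransferase and also spans Gm48194, had a mean of 117 TPM, and against Tut7 the member was at -2.63 ± 0.12 in log2 TPM (SD, n = 3). Gm42868 had 25, 31 and 38 counts, against 1, 2 and 5 for Gm12474. Gm48161 and Gm47031 had 12.8 to 25.6 and 9 to 14 counts, against 0 in every library for the angiotensin receptor gene Agtr1a and the glycosyltransferase gene Mgat4c. The second quantification gave these 2 means of 5037 and 4396 estimated counts. Both share long matches with other genes, as given above, so their levels are uncertain, and the part of those matches in them was not tested.

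The 4 lowest ratios were found in hosts with a mean of 39.4 to 246 TPM. Gm47587 had 0.90, 0.58 and 1.59 TPM in libraries 1, 2 and 3, against 203, 238 and 296 for 2010111I01Rik, a difference of -7.86 ± 0.53 in log2 TPM (SD, n = 3). Gm47447 had 0.38, 0.50 and 2.75 TPM, against 31.1, 47.6 and 39.3 for Elmsan1, part of a histone deacetylase complex. Gm48127, in the cholesterol transport gene Gramd1b, stood at -5.29 ± 0.17. Gm43920, in the zinc finger gene Zfp638, stood at -4.998 ± 0.80. The counts behind them were low, between 7.19 and 33 per library for the first 3 and between 50 and 156 for Gm43920. All 4 have 2 exons.

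The ratio varied with position in the host without a steady trend. Over members with a detected host, the median difference in log2 TPM was -2.24 within 10 kb of the host gene's start (27 members), -2.11 from 10 to 50 kb (47), -1.79 from 50 to 100 kb (32) and -2.77 at 100 kb or more (29). In the last bin the median member had 3.22 TPM and the median host 30.2 TPM, against host medians of 6.91 to 11.9 TPM in the other bins. Spearman's rho between distance and ratio was -0.12 over the 135. Members in a first intron had a median of -1.92 (50 members), against -2.33 for those in later introns (85). Single-exon models had -2.11 (85) and models of 2 or 3 exons -2.20 (44). The 30 members in hosts without counts on retained-intron transcripts had a median of -1.15, against -2.25 for the 105 in hosts with such counts. Those 30 lay in 22 hosts, with 4 each in Rap1a and Man1a2, so they are not separate points. A host with no retained-intron transcript annotated also counts as being without. The differences between these medians were not tested.

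Rap1a, which encodes a small GTPase of cell adhesion (chr3:105727267-105801336, minus strand, 74.1 kb), held 4 single-exon members whose TPM in the first quantification became higher with distance from the start of the gene. In libraries 1, 2 and 3, Gm43331 had 3.75, 3.88 and 8.64 TPM at 12.02 kb. Gm43330 had 4.83, 4.54 and 10.8 TPM at 16.3 kb, and Gm43329 had 5.65, 6.31 and 12.8 TPM at 31.1 kb. Gm43328, at 67.5 kb and above the host as described, was the highest. The order of the 4 was the same in all 3 libraries, with 2.70 to 3.53-fold between the highest and lowest. It was not kept in the second quantification, where Gm43331, the nearest to the start, had 12.5, 13.0 and 21.1 TPM and exceeded Gm43330 and Gm43329 in every library. Gm43331, Gm43330 and Gm43329 lie in the same first intron of 50.9 kb.

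In Man1a2, a gene for a Golgi mannosidase (chr3:100562208-100685503, minus strand), the order of its 4 members was also the same in each library, but it did not follow distance. Gm43463, at 5.41 kb, had 0.33, 0.26 and 0.63 TPM in libraries 1, 2 and 3, on only 10 to 16 counts. Gm43462 and Gm42869, both in intron 5, had 1.47 to 3.87 and 1.75 to 4.63 TPM. Gm43466, at 98.0 kb, had 0.63 to 2.18 TPM. In the second quantification Gm43462 exceeded Gm42869 in every library. All 4 were below the host, which had 10.1, 9.19 and 20.8 TPM.

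**Figure D3:**
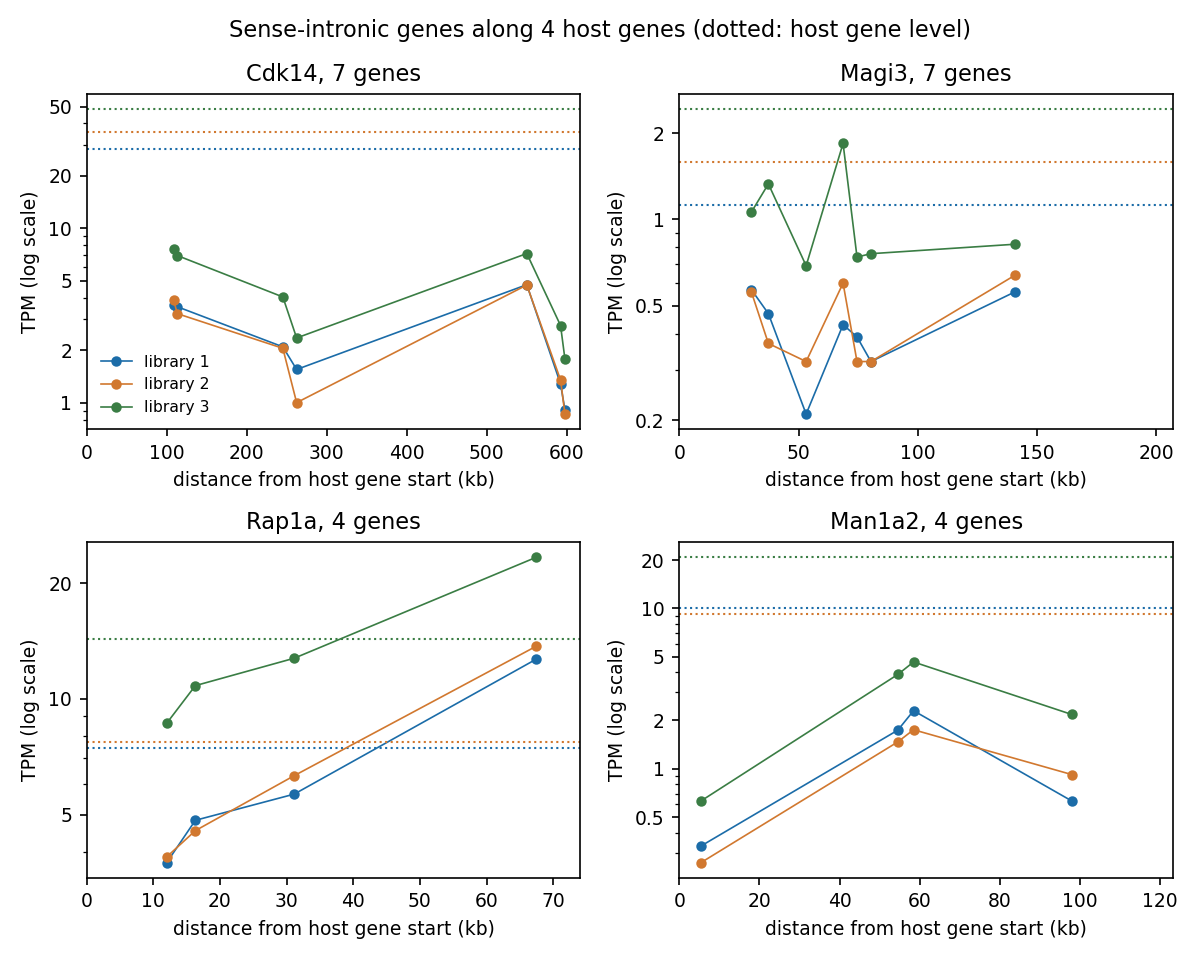
TPM (log axis) of the members in 4 host genes against their distance from the start of the host gene in kb, with 1 line for each library and dotted lines for the host gene's TPM in that library. Levels are those of the first quantification and increase along Rap1a in all 3 libraries, an order not kept in the second. In Cdk14, Magi3 and Man1a2 every member lies under the host.

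Cdk14, a cyclin-dependent kinase gene of 617 kb (chr5:4803391-5420312, minus strand), held 7 members, the number that the annotation places there in all. Gm43111, at 550 kb, had the highest mean TPM, 5.55 ± 1.40, and Gm43728, at 109 kb, had 5.05 ± 2.25 (SD, n = 3). Within libraries 1, 2 and 3 Gm43111 had 4.75, 4.73 and 7.17 TPM, against 3.64, 3.87 and 7.65 for Gm43728. Gm43111 was thus the higher in libraries 1 and 2 and the lower in library 3. The order of the 7 differed in each library. Gm43112, nearest the end of the gene at 598 kb, had 1.18 ± 0.52. Within the same intron 13, Gm43111 was 4.69-fold higher than Gm43112 in mean TPM, against 2.76-fold in the second quantification, where Gm43728 was the highest of the 7 with 9.70, 8.80 and 20.9 TPM in libraries 1, 2 and 3. Of the expected counts of Cdk14, 75.7% lay on retained-intron transcripts, and the host had 28.4, 35.8 and 48.5 TPM in libraries 1, 2 and 3.

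Magi3, a junction scaffold gene (chr3:104013259-104220374, minus strand), held 11 sense-intronic genes, of which 7 were members. It was itself low, with 149, 167 and 185 counts in libraries 1, 2 and 3 and a mean of 1.71 ± 0.66 TPM (SD, n = 3). Its members ranged in mean TPM from 0.41 for Gm43259 to 0.96 for Gm43258. They had 11 to 51 counts per library, and their order differed in each library. Of the 7, 6 lay in the first intron of 114 kb, and 9530097N15Rik lay in intron 6. At this depth the members of Magi3 could not be ranked.

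No member passed the test of spread between libraries. Of the 126 members tested with edgeR's quasi-likelihood fit, 0 passed an adjusted p of 0.05 for spread between libraries, as did 0.00% of the 13309 genes tested. The fit sets each gene against a trend drawn from these same genes over 3 libraries. Since it called no gene of any class, the result does not show that members were even between libraries. At an unadjusted p under 0.05 there were 7 members, or 5.56% of those tested, against 4.92% of all genes tested. DESeq2 marked 0 members as dispersion outliers, against 0.406% of all genes. The lowest p was that of Gm3513, in the folliculin partner gene Fnip2, which had 356, 142 and 163 counts in libraries 1, 2 and 3 (edgeR quasi-likelihood fit across all genes, adjusted p = 0.865).

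A range of more than 2-fold in CPM between the highest and lowest library was found in 29 of the 126 members (23.0%), against 14.0% of all genes tested and 6 of 106 hosts (5.66%). It was found in 23.5% of genes of the annotation class TEC, whose models await experimental support. The share was 24.8% of antisense, 27.9% of long intergenic noncoding and 10.5% of protein-coding genes. A share above that of all genes was thus not particular to the members. The direction against all genes turned in the second quantification, with 10.2% of members and 12.3% of all genes, and without a filter on low counts, with 22.3% and 43.0%. The share varied with depth. Under a mean of 50 counts the share was 34.6% of members and 24.4% of all genes, from 50 to 200 counts it was 13.0% and 14.9%, and at 200 or more it was 17.9% (5 of 28) and 8.02%. Of the 29 members, 17 were highest in library 3, 12 in library 1 and 0 in library 2. Between 2 libraries at a time, 10 to 13 members exceeded 2-fold. They were 10.2, 7.69 and 9.30% of members tested without replicate 1, 2 and 3, against 6.71, 6.86 and 5.64% of all genes. Members were also above all genes with DESeq2 size factors (21.4 and 13.6%) and a prior count of 2 (19.8 and 12.7%).

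The 5 members with the widest range were each highest in library 3. Gm28112, in Ikzf2, which encodes the transcription factor Helios, had 10, 11 and 33 counts in libraries 1, 2 and 3. Gm29670, in Mfsd6, had 16, 11 and 33 counts. Gm13380, in Arhgap21, had 15, 15 and 44 counts. Gm47644 in Cep85l had 30.1, 18.2 and 53.5 counts, and Gm43920 had 50, 76 and 156. All but Gm43920 rested on fewer than 60 counts per library.

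Library 2 stood further below the other libraries for members than for their hosts. The median deviation of a library from the gene's mean in log2 CPM was 0.05, -0.25 and 0.17 for members in libraries 1, 2 and 3, against 0.07, -0.03 and 0.00 for hosts and 0.00, -0.01 and 0.02 for all genes tested. Library 2 was the lowest of the 3 for 85 of the 126 members (67.5%), against 39.6% of hosts and 34.98% of all genes. In the second quantification, scaled to library totals, the shares were 63.0% of members, 53.3% of hosts and 43.9% of all genes. Other noncoding classes moved likewise: the deviation in library 2 was -0.24 for 990 genes of the annotation class TEC, whose models await experimental support, -0.19 for 340 long intergenic noncoding genes and -0.15 for 569 antisense genes, against 0.03 for 10409 protein-coding genes. The pattern is thus not particular to the members. Transcripts annotated as retained intron held 22.2, 20.97 and 23.5% of the counts of protein-coding genes in libraries 1, 2 and 3, also lowest in library 2. Library 2 was made from the least RNA, and the amount of RNA cannot be told apart from other differences between the libraries.

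**Figure D4:**
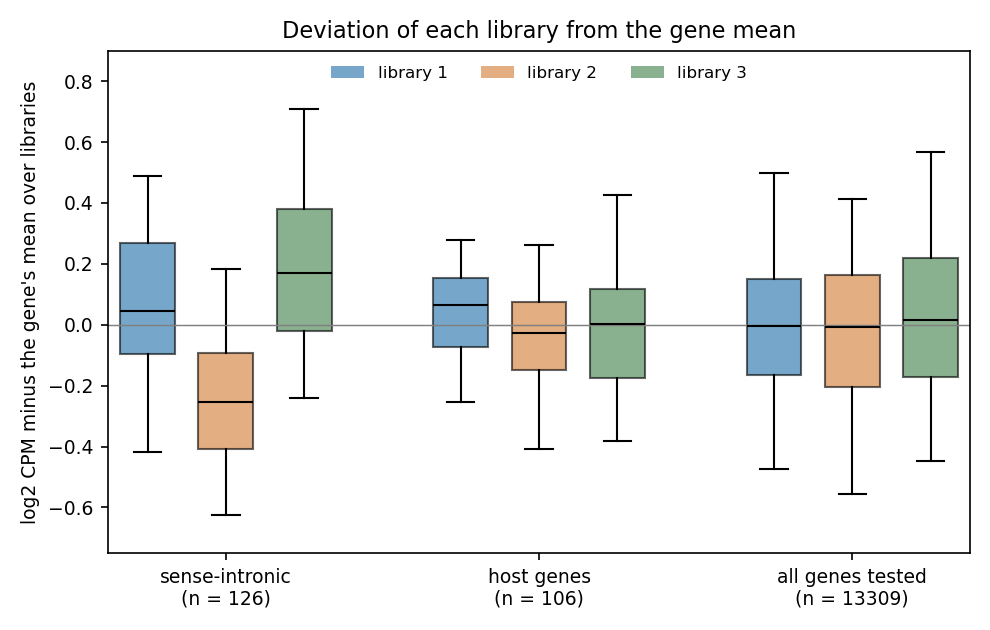
Deviation of each library from the gene's mean over libraries in log2 CPM for 126 members, 106 host genes and all 13309 genes tested, with the median as a line, the quartiles as a box and the 5th and 95th percentiles as whiskers. The members' median is -0.25 in library 2, while the medians of hosts and of all genes lie near 0.

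Differences between libraries were weakly correlated between members and their hosts. Over 123 members with a tested host, in 96 hosts, the difference between library 3 and library 2 in log2 CPM had a median of 0.49 for members and 0.07 for hosts, and was positive for the member in 98 pairs, for the host in 78 and for 52.1% of all genes. Pearson's r between the member's and the host's difference was 0.23 for library 3 minus 2, 0.30 for library 3 minus 1 and 0.35 for library 2 minus 1. These comparisons share libraries, and the coefficients describe members that in part share a host. Members were not paired with unrelated genes for comparison.

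The ends of the models differed from those of coding genes. In the last 50 bases of the longest transcript, 36 of 139 members (25.9%) held the polyadenylation hexamer AATAAA or ATTAAA on the given strand, against 29.8% of the sense-intronic genes below the minimum, 72.7% of the hosts, 41.0% of long intergenic noncoding genes and 38.3% of all genes. The hexamers mark the signal at which most messenger RNAs are cut and given their tail, and a match is a description of these letters alone. Members with a hexamer had a median of 2.21 TPM and those without 2.55 TPM. The last 50 bases of the GENCODE M21 transcripts are printed for 2 members with a hexamer, in capitals, and for the 2 members with the most reads, which had none. Gm47920 lies at chr14:25459980-25462387 on the plus strand, and the other 3 were placed above.
Gm47920 end: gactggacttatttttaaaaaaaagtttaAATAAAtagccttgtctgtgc
Peg13 end: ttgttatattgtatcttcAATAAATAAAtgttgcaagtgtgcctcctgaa
Gm17024 end: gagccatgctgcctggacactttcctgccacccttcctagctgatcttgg
AC113485.1 end: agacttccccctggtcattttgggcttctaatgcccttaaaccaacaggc
In Peg13 the hexamer occurs in overlapping copies. GC content had a median of 42.4% in members, against 47.4% in the hosts' longest transcripts, and the ratio of observed to expected CpG was 0.18 against 0.39. For the sense-intronic genes below the minimum the medians were 45.3% and 0.21, so a low CpG ratio was not particular to the members. The members with the highest CpG ratio were Gm43017 at 0.80 and Gm43445 at 0.64.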

How the data were processed

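The authors deposited expected counts and TPM per gene and transcript. Their file notes name build mm10 and annotation GENCODE M21. Per the file headers, the authors also give the percent of a gene's abundance per transcript (not used here), posterior mean TPM and its credible bounds, and a second table of estimated counts and TPM. Which aligner, counter and strand option were used is not given in the sources used here. As TPM sums to the same total in every library, it carries no depth. The credible bounds of a member's TPM spanned a median of 1.60 to 1.77-fold per library.

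Members, lists and tests were chosen with earlier results of these data known. Members named were the 15 with the most counts, those of the 4 hosts with the most members, the 4 highest and 4 lowest ratios to a detected host, the 5 widest ranges, and 3 genes on each side of the minimum. Others (Gm3513, those in hosts under the minimum or above their host, those with shared sequence or a high CpG ratio, and genes that only the second quantification detects) were named after their values were seen.

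The host is the gene on the same strand that spans the member, protein-coding first and then the shortest. Counts rounded to whole numbers were fitted with edgeR 4.0.16 (R 4.3.3, TMM, filterByExpr, intercept only, deviance against the trended prior, Benjamini-Hochberg adjustment), tested on simulated data, and log2 CPM used a prior count of 0.5. DESeq2 1.42.0 gave size factors and outliers. Sequences were matched with BLAST 2.17.0. Tables and plots were made in Python 3.11.15 (pandas 2.3.3, numpy 2.4.6, scipy 1.17.1, matplotlib 3.10.9). The limit of 3 counts at 95% confidence covers counting error only. Depth was 16205704 to 17033725 counts per library. Alternatives were other pseudocounts, posterior means, the second quantification, other minimums, host rules, scaling, and leaving out each replicate.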

Additional observations from a re-analysis of the deposited data

How the results depend on the processing

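The members' share of counts, 0.134%, became 0.161% as a share of TPM, 0.251% in the second quantification, 0.201% without the 10 genes with the most reads and, in an alternative added after seeing the data, 0.105% without Gm17024. The share of TPM leans on Gm12238, which has few counts. That gene held 1096, 462 and 0 of the members' summed 1969, 1235 and 1638 TPM in libraries 1, 2 and 3. It was 0.122 to 0.148% with each replicate left out. Of the sense-intronic genes, 227 reached the minimum in the second quantification, against 139, and 137 to 143 did with a replicate left out. The member minus host median of -2.05 became -1.60 with a pseudocount of 1 and -2.24 with posterior mean TPM, and was -2.11 to -1.98 with a replicate left out. A range over 2-fold was found in 14 members in the second quantification (10.2%, against 12.3% of all genes), and in 29 of 126 before (23.0%, against 14.0%), so that the direction against all genes turned. It was found in 10 to 13 with a replicate left out, where only 2 libraries remain. These were 7.69 to 10.2% of members tested, against 5.64 to 6.86% of all genes. Spread calls among members were 0 under every alternative run, while calls over all genes were 117 of 23976 without a filter, 7 in the second quantification, 17 without replicate 1, 49 without replicate 2 and 0 without replicate 3. Of all alternatives 32 stayed within 1 SD over libraries, or for counts within 1.5 times, 12 moved further and 0 changed sign. Leaving out 1 of 3 replicates cannot move a mean over libraries by 1 SD. Those alternatives for the share and the member minus host median were therefore bound to stay. Spread calls, at 0 throughout, also count as having stayed, so the tally overstates how stable the results are. Shares and counts of members cannot change sign, so this tally leaves out the turned direction against all genes. Nor does it compare the genes behind a count, as only 1 of the 7 above their host was common to both quantifications. A count within that tolerance can still differ: 162 genes passed a minimum of 5, 113 a minimum of 20, and 128 had at least 10 in each library. In comparisons with the second quantification that were added after seeing the data, 87 members were lowest in library 2, 121 lay below and 7 above their host, and the fold of Gm43111 over Gm43112 was 2.76. Where values moved, the cause was not tested. No paired analysis was possible because there is 1 group. Ranks among members under 50 counts are limited by depth.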

Other observations

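The second quantification gave a mean of at least 10 estimated counts to 138 of the 139 members, Gm12238 being the exception at 0, and to 89 sense-intronic genes that are not members. Among the 89, Gm26984 in Rxfp1, a relaxin receptor gene, had 688, 484 and 422 estimated counts in libraries 1, 2 and 3 and a count of 0 in each library in the first. Gm43847, in the potassium channel gene Kcnd3, had 371, 354 and 532, again against 0 in each library. Both hosts had a mean count of 0 in the first quantification. Gm46409, in Fars2, which encodes a mitochondrial tRNA synthetase, had 568, 643 and 716 estimated counts, against 9, 6 and 14. Over members, the second value was a median of 1.32 times the first after scaling to the library total, and Spearman's rho between the TPM values was 0.69.

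Of the 139 members 135 lay in a detected host, against 99 of the 186 sense-intronic genes below the minimum that have a host. The minimum chose the members, so this is a description.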
